A study of Rattus norvegicus with 11 samples.

Results

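T, NK and B cell genes were followed array by array in lesions and normal glands of the rat adrenal. The set held 41 listed genes: cytotoxic granule genes and an NK receptor, the T cell receptor complex, T cell surface receptors, T cell signalling proteins, cytokine and chemokine receptors with Ccl5, B cell genes, pan-lymphoid genes and T-box factors. A gene counted as measured where a probe set of the platform annotation carried its symbol and no other, and where several did, the 1 with the highest mean level would stand for the gene. By this rule 38 of the 41 genes were measured, among 14506 genes in all, and no member had more than 1 probe set. Cd79a, Pax5 and Eomes were not analysed here.

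The samples were 11 one-colour Affymetrix arrays, each of 1 biological replicate, taken to be a different animal. Lesions came from 7 rats heterozygous for a mutant p27Kip1 allele, written Cdknb1 in the labels (the gene is Cdkn1b), which encodes an inhibitor of cyclin-dependent kinases. Normal adrenal glands came from 4 wild-type rats of the same Sprague–Dawley white eye/Wistar–Kyoto background, and no animal was treated. Lesion replicate 1 was from a female of 23 months and lesion replicates 2 and 3 from males of 21 months, together called the older lesions. The younger lesions, all of 13 months, were replicates 4 and 5 (female) and 6 and 7 (male). Normal replicates 1 (female) and 2 (male) were 24 months old, and normal replicates 3 (female) and 4 (male) were 12 months old. The labels give neither the histology of a lesion nor its share of immune cells. Tissue was measured in bulk, so more cells of a type and more RNA per cell cannot be told apart.

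T cells recognise antigen through a receptor whose signal is carried into the cell by the CD3 chains (Cd3d, Cd3e, Cd3g and Cd247), the kinases Lck and Zap70 and the adaptor Lat. CD8 T cells and NK cells kill target cells by releasing granules that hold perforin (Prf1) and granzymes (Gzma, Gzmb, Gzmk), and NK cells recognise targets through receptors such as Klrd1 without needing CD3 chains. B cells carry a different antigen receptor, with Cd79b as a signalling chain, and the surface protein Ms4a1.

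The promoters of the granule genes, which varied together over the arrays, are shown with those of 3 CD3 chain genes, which did not follow them. Sequences are the 250 bases before the annotated start, 5′ to 3′ on the gene's strand, from RefSeq (build GRCr8). Capitals mark the RUNX core motif TGTGGT and the ETS motif AGGAAG on either strand. Gzma and Gzmk lie close to each other on chromosome 2, as do the CD3 chain genes on chromosome 8. Gzma (chr2:46485697-46485946, minus strand), Gzmb (chr15:34462470-34462719, minus strand), Gzmk (chr2:46582016-46582265, minus strand), Nkg7 (chr1:102981247-102981496, plus strand), Prf1 (chr20:29788790-29789039, plus strand), Cd3d (chr8:54185269-54185518, plus strand), Cd3e (chr8:54211771-54212020, minus strand) and Cd3g (chr8:54183919-54184168, minus strand) read as follows.
Gzma: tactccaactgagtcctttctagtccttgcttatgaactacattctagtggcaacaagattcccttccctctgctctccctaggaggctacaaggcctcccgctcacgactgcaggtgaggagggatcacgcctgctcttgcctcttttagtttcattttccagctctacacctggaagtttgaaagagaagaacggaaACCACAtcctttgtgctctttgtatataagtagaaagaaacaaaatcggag
Gzmb: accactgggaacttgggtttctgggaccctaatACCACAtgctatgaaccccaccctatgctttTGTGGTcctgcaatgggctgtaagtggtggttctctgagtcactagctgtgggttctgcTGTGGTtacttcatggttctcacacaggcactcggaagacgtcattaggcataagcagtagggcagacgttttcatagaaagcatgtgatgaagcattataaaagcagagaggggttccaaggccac
Gzmk: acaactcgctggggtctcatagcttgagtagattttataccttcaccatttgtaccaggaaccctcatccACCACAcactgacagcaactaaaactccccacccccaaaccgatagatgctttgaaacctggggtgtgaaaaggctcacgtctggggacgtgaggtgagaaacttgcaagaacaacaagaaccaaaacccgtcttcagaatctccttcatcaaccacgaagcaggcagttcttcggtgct
Nkg7: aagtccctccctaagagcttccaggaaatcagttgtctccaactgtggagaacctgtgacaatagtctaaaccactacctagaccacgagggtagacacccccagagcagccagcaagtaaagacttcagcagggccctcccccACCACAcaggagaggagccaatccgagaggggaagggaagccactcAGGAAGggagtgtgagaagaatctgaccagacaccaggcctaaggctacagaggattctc
Prf1: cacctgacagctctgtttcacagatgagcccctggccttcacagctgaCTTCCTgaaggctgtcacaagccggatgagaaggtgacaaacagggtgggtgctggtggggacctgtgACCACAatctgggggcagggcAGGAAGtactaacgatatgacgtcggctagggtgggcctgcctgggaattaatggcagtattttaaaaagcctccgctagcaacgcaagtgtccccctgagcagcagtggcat
Cd3d: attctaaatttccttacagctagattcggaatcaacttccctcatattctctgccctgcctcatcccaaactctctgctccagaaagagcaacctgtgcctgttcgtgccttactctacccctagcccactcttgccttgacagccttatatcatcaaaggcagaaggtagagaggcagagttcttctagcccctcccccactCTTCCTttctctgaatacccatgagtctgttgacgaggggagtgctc
Cd3e: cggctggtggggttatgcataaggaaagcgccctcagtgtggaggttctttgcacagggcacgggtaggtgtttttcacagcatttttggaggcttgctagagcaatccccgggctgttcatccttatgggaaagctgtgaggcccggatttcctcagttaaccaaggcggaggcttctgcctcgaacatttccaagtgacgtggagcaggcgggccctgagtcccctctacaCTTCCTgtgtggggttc
Cd3g: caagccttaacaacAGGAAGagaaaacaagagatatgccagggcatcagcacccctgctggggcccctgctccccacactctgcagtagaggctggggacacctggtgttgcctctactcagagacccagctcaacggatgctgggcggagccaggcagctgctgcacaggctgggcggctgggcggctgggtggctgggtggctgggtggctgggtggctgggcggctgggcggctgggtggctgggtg

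Each of the 5 granule gene promoters held the RUNX motif, Gzmb 3 times (217, 186 and 127 bases before the start, counted to the first base of the match) and the others once (Gzma at 51, Nkg7 at 106, Prf1 at 134 and Gzmk at 180). None of the 4 promoters of the CD3 chain genes held it, whereas all 4 held the ETS motif, against 2 of 5 granule gene promoters (Nkg7 and Prf1). The T-box motif GGTGTG, searched on both strands as well and not capitalised, occurred in Gzmk alone of the 9. RefSeq promoters were at hand for 28 of the 41 members, Lck with 2 starts. Of these 29 promoters 44.8% held the RUNX motif, 62.1% the ETS motif and 13.8% the T-box motif, against 14.5%, 29.5% and 15.4% of all 33469 promoters of the same length. Median GC content was 52.4% in the members and 51.2% in all promoters. Matches of different motifs shared bases only in the promoter of Cd28, 3 of them. Outside the granule genes, the RUNX motif occurred with and without their array order, in which lesion replicates 1 and 3 were highest. Cd247, the CD3 chain gene not printed, shared that order and lacked the motif, as did Cd8a, Ptprc, Ikzf1 and Tbx21. Cd2, Sh2d1a and Lck at 1 start shared the order and held the motif. Lat, Trat1, Cd28 and Il7r held it without that order. The motifs were chosen after the expression values were seen, and a match describes letters, not binding.

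Values are log2 expression per probe set, comparable between arrays for 1 gene but not between genes. Array medians lay between 4.91 and 5.01. Lesion replicate 1 stood apart: its highest correlation with another array over all probe sets was 0.976, against 0.984 to 0.992 for the other 10 arrays, and its mean over 8 adrenal cortex markers was 9.94, against 11.13 to 11.55 in the other lesions and 10.73 to 11.17 in normal glands. Chromaffin cell markers averaged 10.30 to 11.11 in lesions and 10.80 to 11.10 in normal glands over 9 genes, so both tissues of the gland were represented on every array. Of the 38 members, 23 averaged below the median of all probe set means (4.97).

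Lymphoid genes varied widely between individual lesions. The range of a member over the 11 arrays was 0.32 to 5.49, with a median of 1.19 against 0.70 over all probe sets. For 12 members the range reached 2, or 4-fold, as it did for 4.21% of probe sets. Lesion replicate 3 gave the highest value for 18 of 38 members (47.4%, against 10.9% of all probe sets) and lesion replicate 1 for 11 (28.9%, against 13.1%). Lesion replicate 2, of the same age and sex as lesion replicate 3, gave the highest value for 0 members (4.51% of probe sets) and the lowest for 16 (42.1%, against 7.39%). With lesion replicate 1 set aside, replicate 3 was highest for 20 members (12.1% of probe sets). With lesion replicate 3 set aside, replicate 1 was highest for 27 (14% of probe sets).

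**Figure D1:**
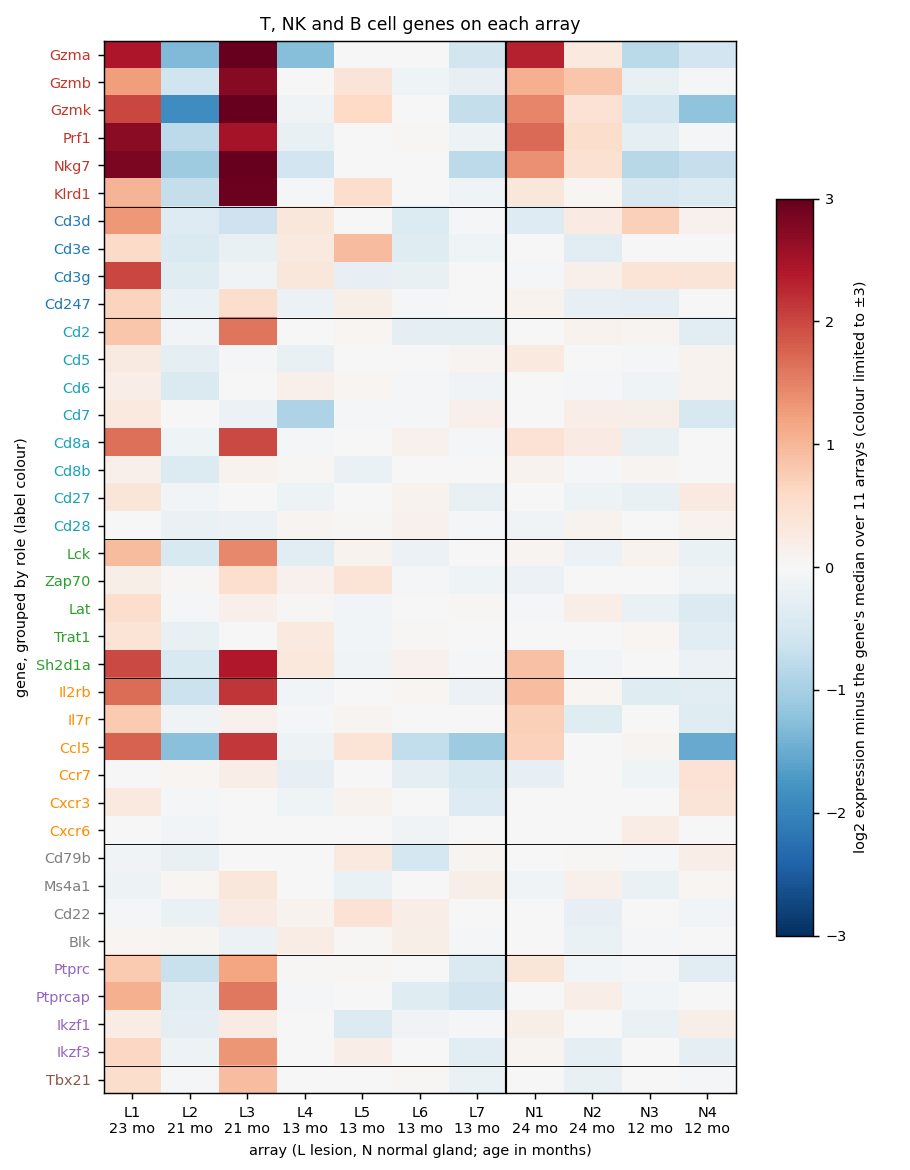
Log2 expression of the 38 measured members on each of the 11 arrays, as the difference from the gene's median over all arrays (colour limited to 3 either way), with genes in rows grouped by role and arrays in columns (L lesion, N normal gland, age in months). The granule genes are red in columns L1, L3 and N1 and blue in L2, while the B cell genes stay pale across all columns.

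For 18 members the highest values of all 11 arrays were those of lesion replicates 1 and 3 (47.4%, against 2.13% of probe sets). They were all 6 cytotoxic genes (Gzma, Gzmb, Gzmk, Prf1, Nkg7 and Klrd1), Cd247, Cd2, Cd8a, Lck, Sh2d1a, Il2rb, Ccl5, Tbx21 and all 4 pan-lymphoid genes (Ptprc, Ptprcap, Ikzf1 and Ikzf3). None of the 4 measured B cell genes was among them. Lesion replicate 3 was at least 2-fold above the mean of the younger lesions for 15 members (0.808% of probe sets) and lesion replicate 1 for 13 (3.1%). This order of arrays was noticed in the values, so these counts describe it and test nothing.

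Granule genes showed the widest differences. Gzma, a granzyme that cleaves proteins in target cells, stood at 7.60, 3.84 and 9.05 in lesion replicates 1, 2 and 3, and at 3.90, 5.18, 5.19 and 4.62 in lesion replicates 4 to 7. In normal replicates 1 to 4 it stood at 7.49, 5.48, 4.38 and 4.59. Lesion replicate 3 was thus 4.32 and lesion replicate 1 2.87 log2 units above the mean of the younger lesions (4.72 ± 0.61, SD, n = 4), lesion replicate 2 lay below all of them, and normal replicate 1 was close to lesion replicate 1.

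Nkg7, a membrane protein of the cytotoxic granule, was at 8.74, 4.84 and 9.51 in lesion replicates 1, 2 and 3, at 5.33, 5.92, 5.91 and 5.12 in replicates 4 to 7, and at 7.29, 6.38, 5.08 and 5.21 in normal replicates 1 to 4. Lesion replicates 1 and 3 exceeded the mean of the younger lesions (5.57 ± 0.41, SD, n = 4) 9.02-fold and 15.3-fold, whereas replicate 2 had the lowest value of the 11 arrays. Both normal glands of 24 months lay above both of 12 months and above all 4 younger lesions.

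Prf1, the pore-forming protein of the granule, was the one cytotoxic gene that was highest in lesion replicate 1. Its values were 8.25, 4.75 and 8.03 in lesion replicates 1, 2 and 3, 5.32, 5.54, 5.58 and 5.40 in replicates 4 to 7, and 7.23, 6.06, 5.24 and 5.52 in normal replicates 1 to 4. The younger lesions were close to each other (5.46 ± 0.12, SD, n = 4), lesion replicates 1 and 3 were 6.93-fold and 5.97-fold above their mean, and lesion replicate 2 was below each of them.

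Gzmk, a granzyme of memory-type CD8 T cells among others, reached 10.28 in lesion replicate 3 and 8.66 in replicate 1 but 4.79 in replicate 2, with 5.94 to 7.24 in the younger lesions and 8.13, 7.09, 6.14 and 5.45 in normal replicates 1 to 4. It was the one member for which lesion replicate 2 lay at least 2-fold below the mean of the younger lesions (0.301% of probe sets). Gzmb, the granzyme that starts apoptosis in target cells, was at 8.10, 6.25 and 9.56 in the older lesions, at 6.58 to 7.21 in the younger ones and at 7.89, 7.67, 6.60 and 6.77 in normal replicates 1 to 4. Klrd1, a chain of NK receptors that read MHC class I, was at 4.72, 2.99 and 6.66 in the older lesions, at 3.59 to 4.24 in the younger ones and at 4.05, 3.76, 3.22 and 3.31 in the normal glands. Its excess in lesion replicate 3 was 7.25-fold and in lesion replicate 1 1.89-fold.

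**Figure D2:**
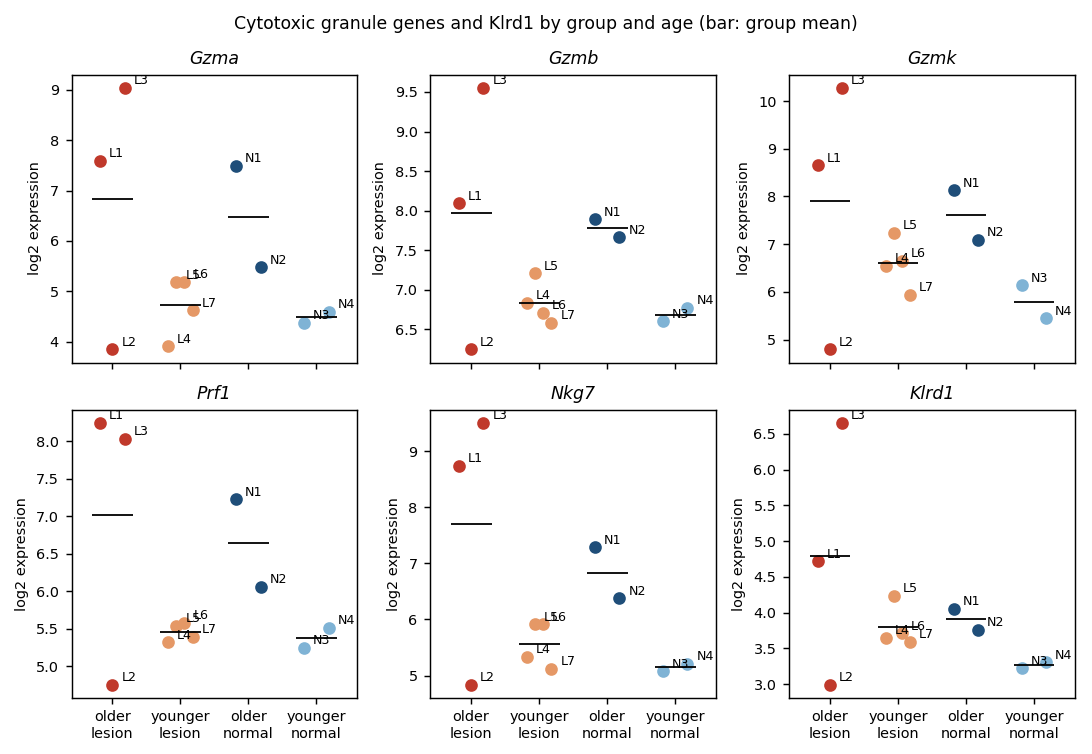
Log2 expression of the 6 cytotoxic genes on each array, by group and age, with a bar at each group mean (3 older and 4 younger lesions, 2 older and 2 younger normal glands; each panel has its own axis, which does not start at 0). L1 and L3 lie above the other 9 arrays and L2 lies below them in each panel.

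Genes of the CD3 chains followed another order. Cd3g, a chain found in every complete T cell receptor complex, was at 5.78 in lesion replicate 1 but at 3.42 and 3.68 in replicates 2 and 3, at 3.54 to 4.11 in the younger lesions and at 3.74, 3.93, 4.20 and 4.16 in normal replicates 1 to 4. Cd3d, its neighbour in the genome and in the complex, was at 5.64, 3.97 and 3.74 in the older lesions, at 3.94 to 4.69 in the younger ones and at 3.96, 4.60, 5.07 and 4.47 in the normal glands. Lesion replicate 3, which carried the most granule gene expression, thus had the lowest Cd3d value of the 11 arrays and a Cd3g value within the younger lesions, while lesion replicate 1 was highest for both.

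Cd3e, the third chain, showed neither order, with 4.67, 3.65 and 3.87 in the older lesions, 4.38, 5.04, 3.73 and 3.96 in lesion replicates 4 to 7 and 4.09, 3.76, 4.10 and 4.09 in the normal glands. Its highest array was the younger lesion replicate 5. Cd247, the zeta chain, which NK cells also use with other receptors, was at 4.97, 4.11 and 4.84 in the older lesions, at 4.13 to 4.48 in the younger ones and at 4.42, 4.05, 4.02 and 4.31 in the normal glands. It was the only chain of the 4 that was highest in both lesion replicates 1 and 3. All 4 probe sets averaged below the median probe set.

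**Figure D3:**
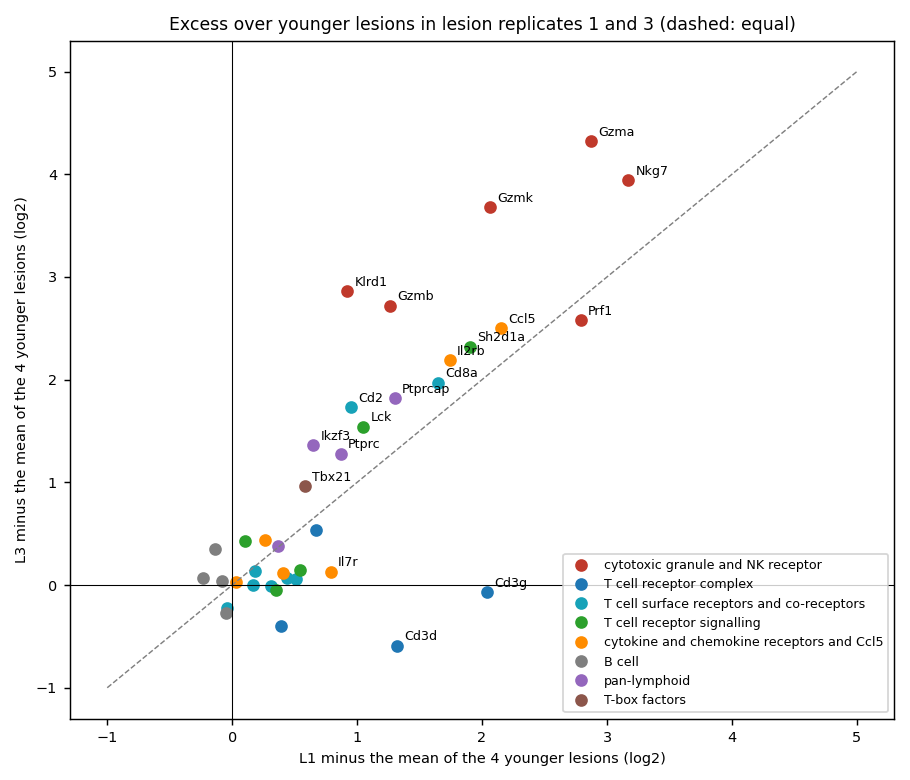
Each point is 1 of the 38 members, placed by its log2 difference from the mean of the 4 younger lesions in lesion replicate 1 (horizontal) and in lesion replicate 3 (vertical); the dashed line marks equal differences and colours mark roles. Granule genes and Klrd1 lie far up and, Prf1 apart, above the line, Cd3g (2.04 in replicate 1 and -0.07 in replicate 3) and Cd3d (1.32 and -0.59) lie to the right near or below 0, and B cell genes lie near the origin.

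Among T cell surface receptors, Cd8a and Cd2 stood out in the same lesions as the granule genes. Cd8a, a chain of the co-receptor of CD8 T cells that some rat NK cells also carry, was at 6.58, 4.78 and 6.90 in lesion replicates 1, 2 and 3, at 4.86, 4.91, 5.04 and 4.88 in replicates 4 to 7 and at 5.34, 5.15, 4.70 and 4.91 in normal replicates 1 to 4. The younger lesions had an SD of 0.08 (n = 4), and lesion replicates 1 and 3 were 3.14-fold and 3.92-fold above their mean. Cd8b, its partner chain on T cells, stayed between 3.90 and 4.45 on all arrays, with 4.45, 3.90 and 4.40 in the older lesions. Its mean of 4.29 was below the median probe set.

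Cd2, an adhesion receptor of T and NK cells, was at 5.45, 4.54 and 6.24 in the older lesions, at 4.35 to 4.68 in the younger ones and at 4.61, 4.74, 4.71 and 4.30 in the normal glands. The inhibitory receptor Cd5 lay between 3.52 and 4.09, its relative Cd6 between 4.02 and 4.64, and the co-stimulatory receptors Cd27 and Cd28 between 4.57 and 5.17 and between 3.30 and 3.62. Cd7, a receptor of T and NK cells, was at 4.88 in lesion replicate 4 and between 5.33 and 6.09 elsewhere. Of these 5 genes, Cd6, Cd7 and Cd27 were highest in lesion replicate 1 and none in lesion replicate 3.

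In the signalling group, Sh2d1a and Lck followed the granule genes. Sh2d1a, an adaptor of SLAM-family receptors in T and NK cells, was at 5.57, 3.13 and 5.99 in lesion replicates 1, 2 and 3, at 3.48 to 3.91 in the younger lesions and at 4.47, 3.50, 3.59 and 3.41 in the normal glands. Lck, the kinase that phosphorylates the CD3 chains, was at 5.97, 4.57 and 6.47, at 4.71 to 5.12 and at 5.11, 4.85, 5.12 and 4.82. Both were highest in lesion replicates 3 and 1 and lowest in replicate 2. Zap70, the kinase that binds phosphorylated CD3 chains, had a narrow range of 5.04 to 5.73. The membrane adaptor Lat ranged from 5.07 to 6.01 and the T cell receptor-interacting protein Trat1 from 2.69 to 3.40, and both were highest in lesion replicate 1.

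Of the cytokine and chemokine genes, Ccl5 and Il2rb showed the same order. Ccl5, a chemokine that activated T and NK cells secrete, was at 10.85, 7.84 and 11.21 in lesion replicates 1, 2 and 3, at 8.93, 9.50, 8.35 and 8.02 in replicates 4 to 7 and at 9.77, 9.08, 9.18 and 7.57 in normal replicates 1 to 4. Il2rb, a chain of the receptors for IL-2 and IL-15, was at 7.63, 5.31 and 8.08 in the older lesions, at 5.78 to 5.99 in the younger ones and at 6.88, 5.99, 5.58 and 5.63 in the normal glands. Both were highest in lesion replicates 3 and 1, and lesion replicate 2 lay below all younger lesions.

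Il7r, the IL-7 receptor chain of naive and memory T cells, was at 4.59 in lesion replicate 1 and 4.50 in normal replicate 1, and between 3.43 and 3.93 on the other 9 arrays. Receptors that guide lymphocytes did not share the order. Ccr7, which directs T cells to lymph nodes, ranged from 4.97 to 5.86 with its highest value in normal replicate 4. Cxcr3, which responds to interferon-induced chemokines, ranged from 4.15 to 4.92, and Cxcr6 from 3.92 to 4.24, with 8 of 11 arrays at 4.02.

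Pan-lymphoid genes were highest in lesion replicate 3 in all 4 cases, with lesion replicate 1 second. Ptprc, the phosphatase CD45 of all leukocytes, was at 7.49, 6.04 and 7.90 in the older lesions, at 6.28 to 6.75 in the younger ones and at 7.08, 6.62, 6.65 and 6.38 in the normal glands. Its partner Ptprcap was at 7.36, 5.96 and 7.89, at 5.75 to 6.30 and at 6.30, 6.51, 6.21 and 6.30. The lymphoid transcription factor Ikzf3 was at 5.01, 4.23 and 5.72 in the older lesions, with 4.04 to 4.60 on the other 8 arrays, and Ikzf1 ranged from 3.76 to 4.40. Tbx21, the T-box factor of cytotoxic and helper type 1 cells, was at 4.79, 4.19 and 5.17 in the older lesions, with 4.02 to 4.29 on the others.

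B cell genes varied less between arrays than the granule genes. All 4 probe sets averaged below the median of all probe set means (4.97). Cd79b ranged from 4.38 to 5.18, the surface protein Ms4a1 (CD20) from 3.34 to 3.89, the inhibitory receptor Cd22 from 3.86 to 4.54 and the kinase Blk from 3.82 to 4.26. Their mean per array was 4.07 to 4.29 in lesions and 4.06 to 4.19 in normal glands, with 4.08 and 4.25 in lesion replicates 1 and 3. No B cell gene had lesion replicates 1 and 3 both above the other arrays.

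Lesions and normal glands were then compared, which is the contrast the study's design names. No member was shown to rise or fall: of 38, 0 were called by limma at a Benjamini-Hochberg adjusted p under 0.05, and 0 reached an unadjusted p under 0.05. Over all 29214 probe sets, 0.065% were called (19, all of them lower in lesions) and 7.71% had an unadjusted p under 0.05. In 0 members did the groups separate (0.479% of probe sets higher and 0.695% lower in lesions). The median difference of the members was 0.13 (0.01 over all probe sets), and 26 of 38 lay above 0 (68.4%, against 51.9%). Leaving out 1 array moved that median between 0.01 (without lesion replicate 3) and 0.25 (without lesion replicate 2), with 0.06 without lesion replicate 1, 0.05 without normal replicate 4 and 0.21 without normal replicate 1 or lesion replicate 7. With array weights it was -0.04, with 17 of 38 above 0.

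For Nkg7 the 7 lesions averaged 6.48 ± 1.86 (SD) and the 4 normal glands 5.99 ± 1.04 (SD). The limma difference was 0.49 with a 95% CI of -1.46 to 2.44 and an adjusted p of 0.942. Gzma differed by 0.14 (95% CI -2.01 to 2.29) and Prf1 by 0.11 (95% CI -1.39 to 1.61). These intervals allow differences of more than 2-fold in either direction. They were far narrower for the genes with a small range, such as Cd8b (-0.07, 95% CI -0.30 to 0.16) and Blk (0.12, 95% CI -0.07 to 0.31). Differences of the granule genes moved with single arrays in both directions, and none was called. Without lesion replicate 1 the difference was 0.12 for Nkg7, -0.19 for Gzma and -0.24 for Prf1, and without lesion replicate 3 it was -0.01, -0.43 and -0.21. Without normal replicate 1 it was 0.93, 0.81 and 0.52, and without lesion replicate 2 it was 0.77, 0.44 and 0.34. The largest differences with all arrays were 0.64 for Klrd1 (95% CI -0.57 to 1.84), 0.49 for Nkg7 and 0.46 for Gzmk (95% CI -1.48 to 2.40), and without lesion replicate 3 Klrd1 stood at 0.23 and Gzmk at -0.06.

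Lesions of 21 to 23 months were compared with lesions of 13 months. No member was shown to rise or fall by the adjusted test, with 0 of 38 called (0.0103% of probe sets, 3 in all), while 5 were higher at an unadjusted p under 0.05 (13.2%, against 4.36% of probe sets) and 0 lower. These were Nkg7 (difference 2.13, SE 0.89, limma adjusted p = 0.488), Cd8a (1.16, SE 0.40, adjusted p = 0.432), Ptprcap (1.01, SE 0.37, adjusted p = 0.450), Cd2 (0.91, SE 0.32, adjusted p = 0.433) and Tbx21 (0.51, SE 0.20, adjusted p = 0.468). Without lesion replicate 1 only Cd2 of the 38 kept an unadjusted p under 0.05 (2.82% of probe sets), and without lesion replicate 3 none did (6.07%). The median difference of the members was 0.30 (-0.02 over all probe sets), and 30 of 38 lay above 0 (78.9%, against 45.8%). Leaving out 1 array moved that median between 0.19 (without lesion replicate 1) and 0.42 (without lesion replicate 2), and array weights gave 0.12. Among the 15 members above the median probe set it was 1.11, with all 15 above 0. That cut used the mean over the same 11 arrays, so high values in lesion replicates 1 and 3 helped members pass it. Gzma, Cd8a and Lck averaged 4.72, 4.93 and 4.92 in the younger lesions, below the cut of 4.97. The 1.11 and the 15 of 15 are thus partly set by the filter.

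Other large differences between older and younger lesions came with wide intervals: Gzma 2.11 (95% CI -0.15 to 4.36), Prf1 1.56 (95% CI -0.01 to 3.12), Gzmk 1.31 (95% CI -0.94 to 3.57), Ccl5 1.26 (95% CI -0.41 to 2.94) and Sh2d1a 1.23 (95% CI -0.03 to 2.49). Ccr7 was the only member whose older lesions all lay above the younger ones (5.44, 5.48 and 5.62 against 4.97 to 5.44, with the nearest values at 5.437 and 5.436), as 3.04% of probe sets did. In the exact two-sided permutation test over the 35 splits of the 7 lesions, whose smallest possible p is 0.0286, p was 0.143 for Cd8a and 0.171 for Nkg7 (adjusted p = 0.742 and 0.752 over all probe sets). Cd3d and Cd3g differed by 0.13 and 0.55, and by -0.47 and -0.19 without lesion replicate 1.

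Calls in the age comparison depended on lesion replicate 2. Without it, 7 of 38 members were higher in the older lesions at a limma adjusted p under 0.05 (18.4%, against 0.0719% of probe sets). These were Cd8a (1.81, SE 0.13, adjusted p = 0.00364), Nkg7 (3.56, SE 0.33, adjusted p = 0.0101), Prf1 (2.68, SE 0.27, adjusted p = 0.0151), Il2rb (1.96, SE 0.23, adjusted p = 0.0287), Sh2d1a (2.11, SE 0.26, adjusted p = 0.0290), Ptprcap (1.56, SE 0.20, adjusted p = 0.0397) and Lck (1.30, SE 0.18, adjusted p = 0.0476). Lesion replicate 2 bears the same labels of age, sex, strain and genotype as lesion replicate 3, so no label gives a reason to leave it out. It was already the lowest array for 16 of the 38 members. The p-values without it therefore show its weight in the comparison and are no evidence of a difference with age. Without lesion replicate 1 or lesion replicate 3, 0 members were called (0.00342% and 0.024% of probe sets).

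**Figure D4:**
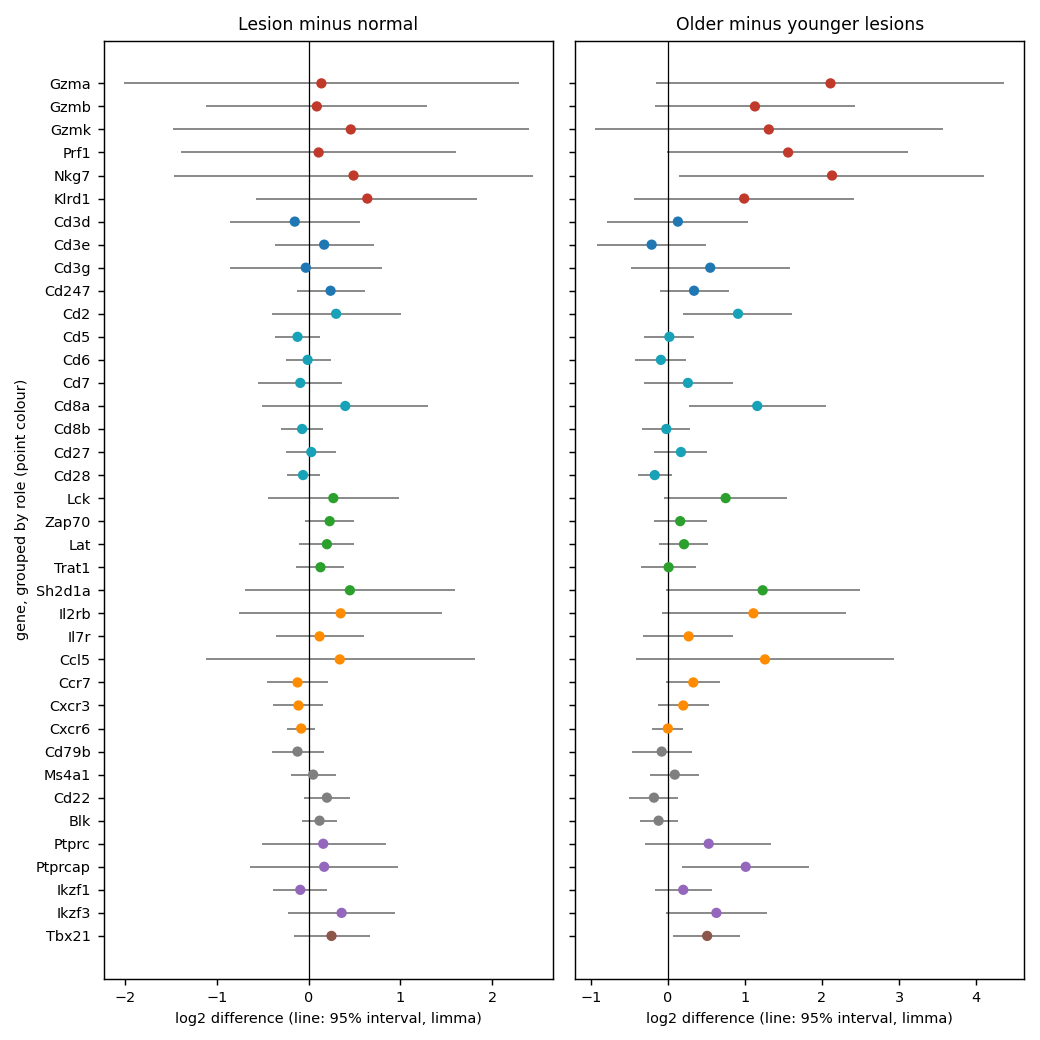
Log2 differences of the 38 members between lesions and normal glands (left) and between older and younger lesions (right), as points with 95% confidence intervals from limma; genes are grouped by role. Every interval on the left includes 0, and on the right those of Nkg7, Cd2, Cd8a, Ptprcap and Tbx21 do not, before adjustment over the 29214 probe sets.

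Among normal glands, 2 animals of each age could be compared, and no difference passed the test. For 9 members both glands of 24 months lay above both of 12 months (23.7%, against 15.6% of probe sets): Gzma, Gzmb, Gzmk, Prf1, Nkg7, Klrd1, Cd8a, Lat and Il2rb. For Cd3e, Cd3g and Cxcr3 both lay below (7.89%, against 13.1%). The differences were 2.00 for Gzma (SE 1.33), 1.82 for Gzmk (SE 1.32), 1.69 for Nkg7 (SE 1.16), 1.26 for Prf1 (SE 0.92) and 1.09 for Gzmb (SE 0.76). None of the 38 was called (0% of probe sets), none reached an unadjusted p under 0.05 (2.87% of probe sets), and 2 against 2 samples cannot give an exact permutation p below 0.333. Of 38 members 23 lay above 0 (60.5%, against 52.8%). Without normal replicate 1 the differences between normal glands were 1.00 for Gzma, 1.30 for Gzmk, 1.23 for Nkg7, 0.68 for Prf1 and 0.98 for Gzmb. The SEs and limma p-values pooled the spread of all 11 arrays, lesions included, so they do not measure the spread of normal glands alone. Without lesion replicate 2 the difference of Nkg7 between normal glands was still 1.69. Its SE was then 0.38 and its unadjusted limma p 0.0016, and 0 members were called.

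The difference with age was not shown to differ between lesions and normal glands. Of 38 members 0 were called for the interaction (0% of probe sets), and Ccr7 alone was higher at an unadjusted p under 0.05 (0.60, limma adjusted p = 0.9996), against 1.06% of probe sets. The interaction was 0.11 for Gzma (95% CI -3.61 to 3.82), 0.44 for Nkg7 (95% CI -2.81 to 3.69) and 0.29 for Prf1 (95% CI -2.29 to 2.88), intervals that span more than 2-fold in either direction. With both groups in 1 model, a comparison added after the data were seen, the older arrays were higher in 9 members at an unadjusted p under 0.05 (23.7%, against 4.91% of probe sets) and in 0 by the limma adjusted p (0%). Of 38, 29 lay above 0 (76.3%, against 47.8%). The 9 were Nkg7 (1.96, SE 0.68, limma adjusted p = 0.399), Gzma (2.07, SE 0.77), Prf1 (1.45, SE 0.54), Gzmb (1.12, SE 0.44), Il2rb (1.01, SE 0.41), Cd8a (0.89, SE 0.32), Ptprcap (0.69, SE 0.31), Cd2 (0.63, SE 0.26) and Lat (0.27, SE 0.11). Adrenal cortex markers lay the other way with age. In both groups together 0 of 8 were above 0 (47.8% of probe sets). Their median was -0.58, and 4 were lower at an unadjusted p under 0.05 (1470 of 29214 probe sets). In lesions alone 0 of 8 were above 0 (45.8% of probe sets), with a median of -0.65 and 3 lower (5.24%). The mean of the 8 was 9.94 in lesion replicate 1, but 11.13 and 11.32 in lesion replicates 2 and 3. It was 11.27 to 11.55 in the younger lesions, so the lower mean of the older lesions lay mostly with replicate 1. In normal glands it was 10.73 and 10.74 at 24 months, and 11.08 and 11.17 at 12 months. None of the 8 was called, and the part of tissue make-up in the age differences of the lymphoid genes was not tested.

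Other genes of T and NK cells were also high in lesion replicates 1 and 3. Of 54 further T and NK cell genes 42 were measured, and 0 were called in any comparison. For 11 of the 42 lesion replicates 1 and 3 were both above the other 9 arrays (26.2%, against 2.13% of probe sets). Lesion replicate 3 was highest for 15 (35.7%, against 10.9%) and lesion replicate 1 for 7 (16.7%, near the 13.1% of all probe sets). Klrb1a, an NK receptor, was at 5.16, 3.54 and 7.28 in the older lesions, at 3.62 to 4.35 in the younger ones and at 4.43, 3.95, 3.25 and 3.86 in the normal glands. Klrc1, which pairs with Klrd1, was at 4.21, 3.25 and 6.55, at 3.14 to 3.53 and at 3.90, 3.42, 3.37 and 3.20. For both, lesion replicate 3 exceeded lesion replicate 1 by more than lesion replicate 1 exceeded any other array. Prkcq, a kinase of T cell receptor signalling that other cells also use, was lowest in lesion replicate 1 (5.02, against 5.49 to 7.27 elsewhere). Klrb1a differed by 1.42 (SE 0.67, limma adjusted p = 0.533) and Klrc1 by 1.34 (SE 0.60, limma adjusted p = 0.514) between older and younger lesions.

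Of 14 listed ligands of the member receptors, 13 were measured and 0 were called in any comparison. In 0 of the 13 were lesion replicates 1 and 3 both above the other arrays, which is near the 2.13% of all probe sets. Cxcl10, an interferon-induced ligand of Cxcr3, was at 7.20 to 8.59 in lesions and 8.92 to 10.54 in normal glands, without overlap (difference -1.89, SE 0.33, limma adjusted p = 0.0847). Cxcl9, another Cxcr3 ligand, was lowest in lesion replicate 3 (3.66) and highest in replicate 1 (5.37). Il15, a cytokine that sustains NK and CD8 T cells, was lowest in lesion replicate 1 (4.99) and between 5.25 and 6.27 elsewhere. Among 13 chemokine and adhesion genes of lymphocyte homing, Ccl4, which cytotoxic cells also secrete, was at 6.65, 4.82 and 6.80 in the older lesions and at 4.97 to 5.50 on the other arrays. Only 2 of these 13 had lesion replicates 1 and 3 above the other arrays (15.4%, against 2.13% of probe sets). Against normal glands, 1 of the 13 was higher and 3 were lower in lesions at an unadjusted p under 0.05 (7.71% of probe sets either way), and 0 were called.

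Markers of other cell types were set beside the array order. The mean of 13 macrophage markers lay within 6.76 to 7.20 in lesions and 6.83 to 7.24 in normal glands, with 0 of 13 having lesion replicates 1 and 3 above the other arrays. The macrophage and NK cell integrin Itgam was at 6.01 in lesion replicate 3 and at 3.48 to 4.78 elsewhere. The mean of 12 dendritic cell and MHC class II markers was lowest in lesion replicate 3 (6.08) and between 6.37 and 6.94 elsewhere, with Cd74 at 9.55 there and at 10.16 to 11.28 on the other arrays. Further B and plasma cell genes, 17 of 24 measured, averaged 4.45 to 4.66 in lesions and 4.54 to 4.60 in normal glands. Jchain, which joins secreted antibodies, was at 7.12 in lesion replicate 1 and 6.31 in normal replicate 1, and at 4.72 to 5.72 elsewhere.

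Some blood cell and cell division markers shared part of the array order of the granule genes. The mean of 7 red cell and platelet genes was 5.61, 5.14 and 5.98 in the older lesions, 5.20 to 5.57 in the younger ones and 5.28 to 5.62 in the normal glands, so replicate 3 was highest and replicate 2 lowest here too. Lesion replicate 1, at 5.61, did not exceed normal replicate 1, at 5.62. Of the 7, 2 had lesion replicates 1 and 3 above the other arrays (28.6%, against 2.13% of probe sets). One was Hbb, a chain of haemoglobin named after its values were seen, at 11.51, 9.68 and 11.81 in the older lesions, 10.05 to 11.37 in the younger ones and 10.22 to 11.40 in the normal glands. The platelet chemokine Pf4 was at 8.03, 7.20 and 8.09 in the older lesions and 8.11, 7.60, 7.89 and 6.76 in the normal glands. The neutrophil genes S100a8 and S100a9 were at 7.30 and 7.54 in lesion replicate 1 and at 7.14 and 7.06 in replicate 2. They were at 5.01 and 6.50 in replicate 3, so replicate 2 was high for them and low for the granule genes. Over all 14 neutrophil markers the mean was 4.71, 4.75 and 4.64 in lesion replicates 1, 2 and 3. It was 4.34 to 4.49 in the younger lesions and 4.12 to 4.36 in the normal glands, so replicate 3 was raised too. Cell division genes, 15 in all, averaged 5.48, 5.39 and 5.18 in the older lesions, against 4.47 to 4.68 in the younger ones and 4.43 to 4.55 in the normal glands, so lesion replicate 2 lay between replicates 1 and 3 there. Of the 15, 5 had lesion replicates 1 and 3 above the other arrays (33.3%, against 2.13% of probe sets). Between older and younger lesions, 12 of the 15 were higher at an unadjusted p under 0.05 (4.36% of probe sets). Of these 12, 2 were called by the limma adjusted p, the only probe sets called higher in that comparison. The part of blood, of these cell types or of lesion content in the lymphoid values was not tested.

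**Figure D5:**
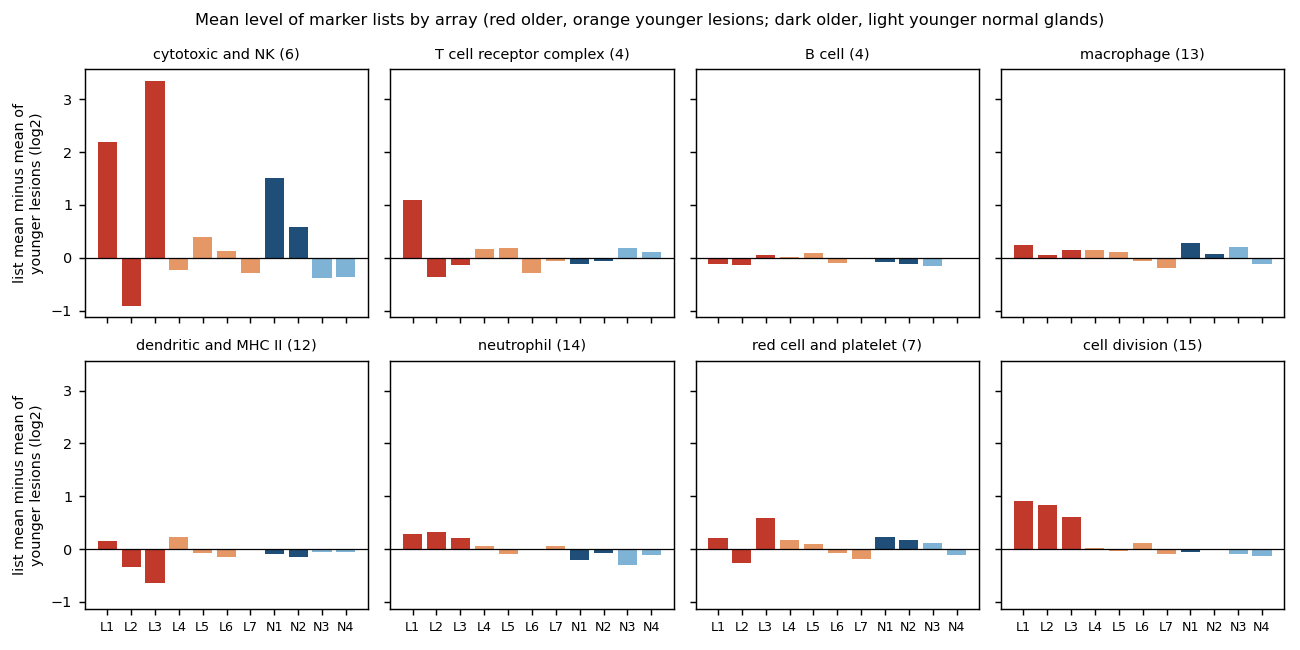
Mean log2 level of 8 marker lists on each array as a difference from the mean of the 4 younger lesions, with the number of genes in brackets and 1 scale for all panels (L lesion, N normal gland). The cytotoxic list departs in L1, L2, L3, N1 and N2, the T cell receptor complex is highest in L1, the B cell and macrophage lists stay near 0, and cell division is raised in L1, L2 and L3.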

How the data were processed

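The authors deposited 1 table of log2 expression values per probe set for the 11 arrays, and the submitters' processing notes name RMA and Expression Console 1.3.0.187. RMA normalizes all arrays together, which sets their distributions alike and can shrink broad shifts. RNA was amplified before labelling, per the labels' protocols, and precision is limited by how few arrays there are. Of 29214 probe sets, 15310 had 1 gene symbol in the platform annotation, 323 several and 13581 none. All were fitted with limma 3.58.1 in R 4.3.3 on the log2 values as deposited. There was 1 mean per group for lesions against normal glands and 1 per group and age class for the age comparisons. The spread of a probe set was pooled over all arrays of a fit. P-values were adjusted by Benjamini-Hochberg over all probe sets, with a call at 0.05. Figures and tables were made with Python 3.11.15. The fits were also run on simulated data in which a probe set had the same spread on every array. Unequal spread between older and younger lesions was not simulated.

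Every measured member was named. For the further lists, the rule allowed up to 2 genes with the largest difference between lesions and normal glands. It also allowed up to 2 with the largest difference between older and younger lesions. The rule was not followed evenly, so the genes named from these lists are a selection. No gene was named from the cell division, adrenal cortex, chromaffin cell, mast cell, endothelial or fibroblast lists. Only 1 gene each was named from the lymphocyte homing and macrophage lists. Mast cell, endothelial and fibroblast markers were measured but are not described in the text above. The members and lists were chosen with earlier results of these data known. Alternatives were other normalization, filters, moderation, array weights, 1 probe set per gene, covariates, subsets of arrays, a replicate block and each array left out in turn.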

Additional observations from a re-analysis of the deposited data

Results flagged for a closer look

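Each member was examined for a single array far from the others of its group, in 76 groups of arrays, and 9 stood out. Chance alone gives about 1 in 20. Among lesions, replicate 1 was high for Cd3g (5.78, next 4.11), Lat (6.01, next 5.62) and Il7r (4.59, next 3.93), and replicate 4 was low for Cd7 (4.88, next 5.64). Among normal glands, replicate 1 was high for Sh2d1a (4.47, next 3.59), replicate 2 was low for Cd3e (3.76, next 4.09), and replicate 3 was high for Cxcr6 (4.24, with the other 3 at 4.02). Normal replicate 4 was high for Cxcr3 (4.92, next 4.54) and low for Trat1 (2.69, next 2.99). The granule genes were not among the 9, since lesion replicates 1 and 3 were both high.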

How the results depend on the processing

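No member was called under any of 22 alternatives for lesions against normal glands, or 18 each for age in normal glands, the interaction and age over both groups (a comparison added after the data were seen, as were the counts of highest arrays with 1 lesion set aside). For older against younger lesions 0 to 7 members were called when 1 array was left out, 7 only without lesion replicate 2, and 0 under the other 20 of 21 alternatives. No called value changed sign, but differences that were not called did. Over the alternatives 20 of 38 members took both signs for lesions against normal glands, 11 for older against younger lesions, 20 for age in normal glands, 20 for the interaction and 8 for age over both groups. The members' median ranged from -0.04 to 0.26 for lesions against normal glands and from 0.12 to 1.11 for older against younger lesions. The 1.11 is that of the members above the median probe set, a cut that values in the older lesions helped to pass. Leaving 1 array out assumes that a lone remaining array varies like the others.

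Counts of probe sets called changed more. For lesions against normal glands the 19 became 30 without probe sets below the median, 31 with array weights, 5 with arrays of 12 to 13 months only and 0 with those of 21 to 24 months, and 5 to 28 leaving 1 array out (5 without normal replicate 3, 11 without lesion replicate 7). With the replicate number as a block 3 probe sets and 0 members were called. Same-numbered arrays deviated together weakly (correlations of deviations 0.182, 0.15, 0.073 and 0.209), and 7 of 8 numbered arrays correlated best with their own number in the other group. This is a hint from the data and not from the labels, which do not say what a shared number means, so the fit without the block was kept. In both groups the older animals have the lower numbers (lesion replicates 1 to 3, normal replicates 1 and 2). Within a group, anything that runs with the number therefore cannot be fully told apart from age. Between the groups, replicates 1 and 2 match in age class and sex. Replicate 3 is a male of 21 months among lesions and a female of 12 months among normal glands. For older against younger lesions the 3 became 1 with lesion arrays only, 0 with age in months, 0 with male arrays only and 1 to 39 leaving 1 array out. Leaving 1 array out gave 0 to 1 for age in normal glands, 0 to 1 for the interaction and 0 to 5 for age over both groups. Of the 15 members above the median probe set, 11 had lesion replicates 1 and 3 above the other arrays, against 18 of 38. High values in those lesions helped members pass that cut, so the larger share is partly set by it. The cause of these changes was not tested.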
